A study of Mus musculus with 4 samples.

Results

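The genes described here lie wholly within the start and end of another gene that runs on the opposite strand. A gene was taken as nested when it is a row of the authors' deposited comparison and its chromosome, start and end fall inside another row of that comparison whose strand is opposite. The rows of that comparison had passed a filter on expression level, described below. Among them the rule used positions alone. It found 216 nested genes of the 11536 rows, inside 193 host genes, in 217 pairs, because Avpr2 lies inside both Arhgap4 and L1cam. Rbm4b is both nested and a host. The nested genes comprised 112 protein-coding genes, 51 genes annotated as antisense RNA, 24 other long non-coding RNA genes, 15 pseudogenes, 3 small RNA genes and 8 models that the annotation holds as yet to be tested by experiment. The remaining 3 had no match in the annotation, and 173 of the 193 hosts were protein coding.

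The libraries hold RNA of double-positive (DP) thymocytes, which bear both CD4 and CD8 and rearrange their T cell receptor alpha genes, from C57BL/6 mice. The cells had been sorted to a stated purity above 98%. In the 2 knockout (KO) mice both Uqcrfs1 alleles were floxed and Cre was driven by the CD4 promoter, so that deletion starts around the DP stage; 2 littermates served as controls. The controls are labelled wild type (WT) and are described for the series as heterozygous, and the sources do not tell if Cre was present in them. Uqcrfs1 codes for the Rieske subunit of complex III in the respiratory chain. Its level in CPM (the count of a gene scaled by the total assigned to genes) was 61.4 in WT 1, 57.1 in WT 2, 15.6 in KO 1 and 18.6 in KO 2 (log2 change -1.80, SE 0.09, adjusted p = 0.000178 by edgeR's quasi-likelihood test).

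Genes on opposite strands of the same stretch of DNA are transcribed in opposite directions, so their transcripts are complementary wherever exons of both cover the same bases. When the smaller gene sits in an intron of the larger one, their mature transcripts share no bases. Many long non-coding RNA genes that lie opposite a coding gene are classed as antisense RNA in the annotation, and reads are given to one or the other only if the library and the counting keep track of the strand.

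Libraries held 30408863 to 34080516 reads assigned to genes. The no-feature line of the counting holds reads that aligned once but matched no annotated exon under its strand setting. As that setting is not stated, the line may include reads opposite to an exon. It came to 17.2% of uniquely aligned reads in WT 1 and 18.6% in WT 2, against 20.6% in KO 1 and 19.9% in KO 2. Both KO libraries thus lay above both WT libraries, and the exact binomial 95% intervals, which cover counting error only, were as narrow as 17.19% to 17.21% in WT 1. Ambiguous reads were 0.865% to 0.891%. The summed level of 10 DP marker genes was 17614 to 18804 CPM, that of 6 erythroid markers 0 to 0.221 CPM with Hba-a1 and Hba-a2 at 0, that of 6 stromal markers 4.28 to 6.18 CPM with Pdgfra and Krt8 at 0, that of 9 myeloid markers 17.3 to 27.0 CPM and that of 6 B cell markers 25.5 to 29.5 CPM. Markers of the preceding double-negative stage summed to 370 and 387 CPM in the WT and to 426 and 489 CPM in the KO libraries, and those of mature T and NKT cells to 231 and 228 against 245 and 253 CPM; the part of other cells in the values that follow was not tested. In whole-population RNA, fewer cells of a type and less RNA per cell cannot be told apart.

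What exon sharing means is shown by 3 pairs, each as a stretch of 60 bases in which the coding sequence of the host and the transcript of the nested gene are exact reverse complements. Sequences are from the GENCODE M21 transcripts (mm10), written 5′ to 3′ on the strand of each gene, and capitals mark the middle 20 bases, which pair with the capitals of the partner. These pairs are shown because Gm26577 had the smallest p of all nested genes, Kdm6bos stood at a low level against an abundant host, and Gm11175 bears on how strand was counted; Kdm6bos and Gm11175 were picked after their values were seen.
Gm26577 (chr10:21145180-21145239, plus strand): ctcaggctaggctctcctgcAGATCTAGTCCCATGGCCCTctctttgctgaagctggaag
Myb (the same bases, minus strand): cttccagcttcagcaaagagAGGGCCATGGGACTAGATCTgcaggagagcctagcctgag
Kdm6bos (chr11:69401559-69401618, plus strand): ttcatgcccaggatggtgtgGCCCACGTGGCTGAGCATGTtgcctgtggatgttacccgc
Kdm6b (the same bases, minus strand): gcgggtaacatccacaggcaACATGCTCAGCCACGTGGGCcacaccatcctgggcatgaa
Gm11175 (chr8:70699780-70699839, minus strand): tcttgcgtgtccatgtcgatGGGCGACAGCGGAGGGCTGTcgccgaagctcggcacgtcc
Jund (the same bases, plus strand): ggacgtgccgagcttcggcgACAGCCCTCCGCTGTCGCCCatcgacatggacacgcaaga
In all, Gm26577 shared 559 exonic bases with Myb and Kdm6bos shared 286 with Kdm6b.

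The Jund pair also bears on what the counting did with strand, which the sources used here do not state. Jund, a subunit of the AP-1 transcription factor, is a single uninterrupted exon block in the deposited table, and Gm11175 lies wholly within it (chromosome 8, bases 70699538 to 70700080). By default, HTSeq counting without regard to strand would give a read inside both genes to neither. Yet Gm11175 had 74 and 60 counts in WT 1 and 2 and 136 and 110 counts in KO 1 and 2, beside 241 to 276 CPM for Jund. As the setting is not stated, the split of reads between genes that share exons is taken as deposited and stays uncertain to that extent.

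As a whole, the nested genes did not stand apart from the rest of the table. The median of log2 KO mean CPM over WT mean CPM was -0.006 for the 216 nested genes, 0.011 for the 193 hosts and -0.001 for the 11128 rows that are neither. Of the nested genes 106 were higher and 110 lower in KO, and 104 hosts were higher and 89 lower; 49.5% of all 11536 rows were higher. Library by library, the median of the nested genes around each gene's own mean was -0.007 and 0.009 in WT 1 and 2 and 0.011 and 0.008 in KO 1 and 2, so the KO libraries did not separate from WT 2. Summed over all nested genes the level was 8730, 8649, 8659 and 8576 CPM in the same order, and the 4 libraries spanned a narrow range. The no-feature share, by contrast, separated the groups. Within pairs, the nested gene's change minus its host's had a median of -0.001. These 3 medians near 0 turned sign under some of the alternatives given in the closing section.

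The spread of the nested genes was wider on one side. Their 10th percentile was -0.22 and their 90th 0.77, against -0.16 and 0.16 in the rows that are neither nested nor host. A difference of more than 2-fold upward in KO was seen in 19 of the 216 nested genes, beside 0.485% of all rows, and downward in 2, beside 0.104%. Of the 216, 13 reached 1 CPM in both KO libraries and in neither WT library, and 2 the other way round. The 13 had to be higher to enter the table, so the counts of higher genes here are a description. edgeR's quasi-likelihood test called 3 of 13281 genes at an adjusted p under 0.05 (0.0226%), and none of the 216 nested genes or 193 hosts was among them; the smallest adjusted p of a nested gene was 0.056 (Gm26577). DESeq2's Wald test called 5 nested genes, with 0.181% of all genes called, and edgeR's exact test 15, with 0.610%. At an unadjusted p under 0.05, 30 nested genes were higher (13.9%) against 4.40% of all genes tested, and 10 were lower (4.63%) against 4.01%. With single libraries left out, the higher count fell most without KO 1. The share of all genes higher at that p was largest without WT 2, so the excess depended on the libraries used. Of the hosts, 17 were higher and 12 lower at that p. The groups did not overlap in 47 higher nested genes (21.8%) and 41 lower ones (19.0%), beside 20.5% and 20.8% of all rows.

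**Figure D1:**
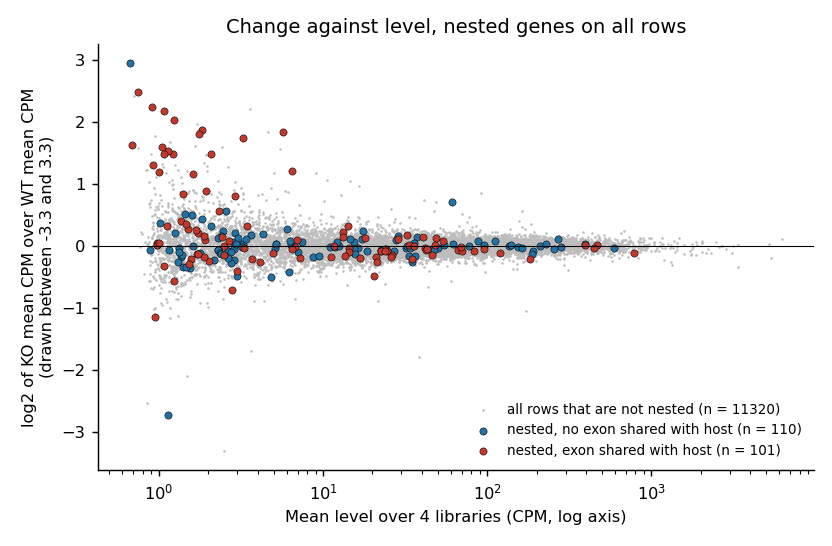
Each point is a row of the authors' comparison, with its mean level over 4 libraries (CPM, log axis) against the log2 of KO mean CPM over WT mean CPM; grey points are rows that are not nested, blue and red points nested genes without and with exons shared with the host, and values beyond 3.3 are drawn at the edge. Nested genes at high level lie near 0, and the red points above 1 stand at the low end of the level axis.

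The upward tail lay mostly at low level. Among the 102 nested genes under 5 CPM, 21 were higher at an unadjusted p under 0.05 (20.6%) and 4 lower, against 65 higher (3.57%) and 42 lower of the 1823 rows of that level that are neither nested nor host. Among the 114 nested genes at 5 CPM or more, 9 were higher and 6 lower. The entry rule of the table bears on such rows, since it asks for 1 CPM in at least 2 libraries. Of the 216 nested genes, 13 reached 1 CPM in both KO libraries and in neither WT library, and 2 in both WT libraries and neither KO library, against 35 and 36 of the 11128 other rows. Genes that entered through KO alone had to be higher there, so the counts of low nested genes are given as a description.

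The nested genes were then divided by whether they share exons with the host. By the GENCODE M21 exons, 101 nested genes share at least 1 exonic base with a host, 110 share none, and 5 could not be placed. Of these, 12 with shared exons and 1 without reached 1 CPM in both KO libraries and in neither WT library, so the counts here are a description too. The median log2 change was 0.010 with shared exons and -0.016 without. Among members at 1 CPM or more in all 4 libraries the order turned, at -0.036 with shared exons (33 of 78 higher) and -0.014 without (46 of 98 higher). At an unadjusted p under 0.05, 25 exon-sharing genes were higher and 5 lower, and 5 genes without shared exons were higher and 4 lower, beside 4.40% and 4.01% of all genes tested. Split by kind, with the same background, the 35 antisense RNA genes that share exons had a median of 0.19 with 14 higher and 1 lower, whereas the 16 that share none had -0.08 with 0 in either direction. Other long non-coding genes gave a median of 0.26 with shared exons (6 of 15 higher, 0 lower) and -0.04 without (1 of 9 higher, 2 lower). Protein-coding nested genes gave -0.05 with shared exons (4 of 43 higher, 3 lower) and 0.003 without (3 of 68 higher, 1 lower).

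The level of the nested gene relative to its host separated the exon-sharing genes further; this division was made after the values were seen and is a description. Levels were compared per kb of the deposited exonic length, which in some genes exceeds the merged exons. In 19 pairs the nested gene shared exons and stood under 5% of its host, and all 19 nested genes were higher in KO by the ratio of mean CPM, from 0.05 to 2.48 with a median of 1.48. The unadjusted p was under 0.05 in 14 of them, beside 4.40% of all genes tested that were higher at that p. In 16 both KO libraries lay above both WT libraries, beside 20.5% of all rows. The hosts of the 19, with a median level of 386 CPM beside 1.36 CPM for the nested genes, had a median change of 0.04. Of these 19, 8 reached 1 CPM in both KO libraries and in neither WT library, and the 6 that reached it in all 4 libraries were all higher, with a median of 0.65. The 13 pairs at the same relative level without shared exons had a median of -0.03, with 6 higher and 7 lower. Exon-sharing genes at 5 to 10% of the host had a median of 0.05 over 11 pairs, those at 10 to 100% -0.03 over 29 and those above the host -0.05 over 42. By these lengths, Gm20511 at 4.24% of Fmnl1 lay just inside the 5% limit. Gm37376 at 5.17% of Malat1 and Gm10390 at 5.25% of Rbm19 lay just outside it. The deposited length of Malat1, 9336 bases, exceeds its span from base 5795690 to base 5802672. The side of the limit on which Gm37376 falls is therefore uncertain.

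**Figure D2:**
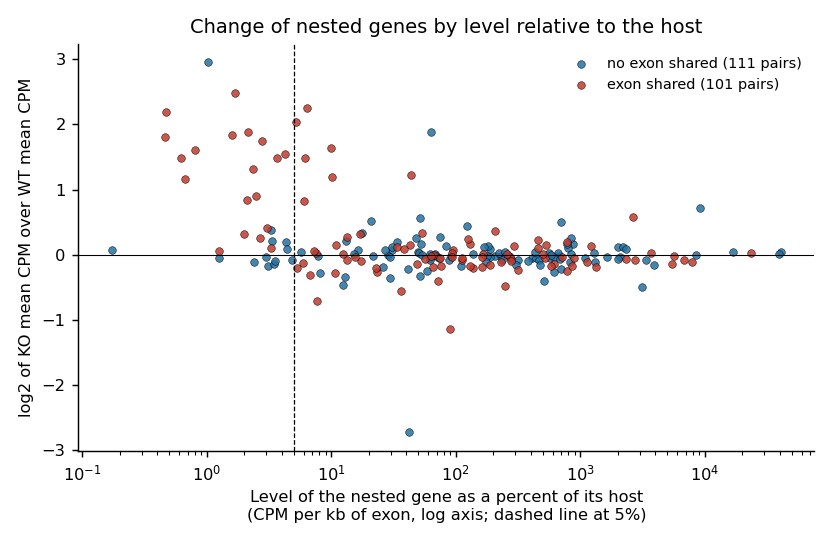
The level of each nested gene as a percent of its host, per kb of the deposited exonic length (log axis, dashed line at 5%), is plotted against the nested gene's log2 of KO mean CPM over WT mean CPM, in blue for the 111 pairs without and in red for the 101 pairs with shared exons. Avpr2 is drawn in both colours, red for Arhgap4 and blue for L1cam. All 19 red points left of the line lie above 0, and the 13 blue points there lie on both sides of it, with Fndc9 alone above 1.

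Set against the reads of their own hosts, the 19 nested genes gave medians of 28.7 reads per 10000 host reads in WT 1, 19.1 in WT 2, 65.1 in KO 1 and 50.1 in KO 2. KO 1 held the highest ratio in 15 of the 19 pairs and KO 2 in 2. WT 2 held the lowest ratio in 13 pairs and WT 1 in 6. The KO order, KO 1 above KO 2, was that of the no-feature share, while the WT order was the reverse of it, since WT 1 had the lower no-feature share. Whether the 2 measures are related was not tested.

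**Figure D3:**
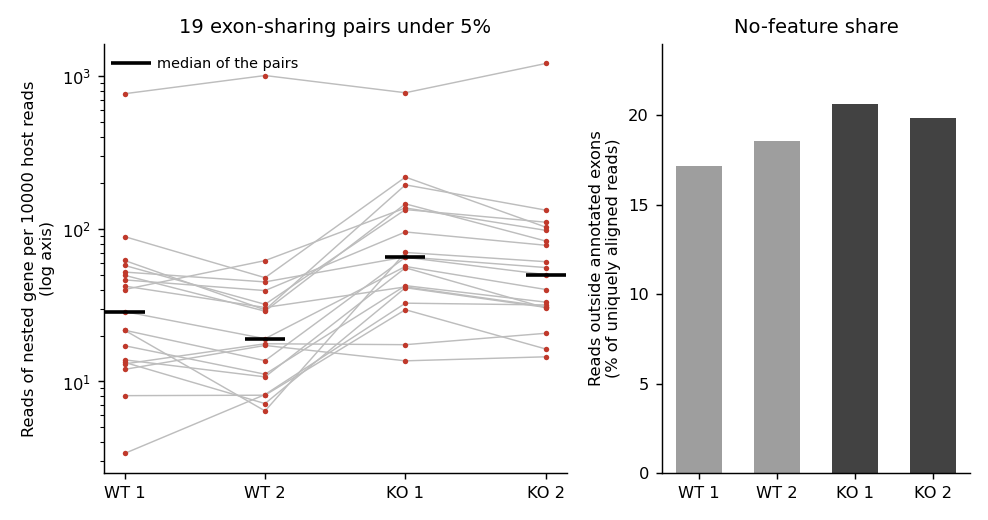
Left, reads of the nested gene per 10000 reads of its host (log axis) in each library for the 19 exon-sharing pairs under 5%. There is 1 line per pair, and black bars give the median of the pairs. Right, the no-feature line (labelled on the axis as reads outside annotated exons) as a percent of uniquely aligned reads. Medians are 28.7 and 19.1 in WT and 65.1 and 50.1 in KO, and the no-feature shares are 17.2% and 18.6% in WT and 20.6% and 19.9% in KO.

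The same classes were then read with no filter on the level of the nested row, taking every row of the count table that lies opposite to and inside a row of the comparison. There were 354 rows with at least 1 count that share exons with the host and stand under 5% of it, of which 335 are outside the authors' comparison. Their summed level was 54.3 CPM in WT 1, 43.0 in WT 2, 124 in KO 1 and 92.0 in KO 2, so both KO libraries lay above both WT libraries. Of the 354 rows, 289 were higher in KO (81.6%), beside 49.5% of the rows of the comparison. The 321 rows at that level without shared exons summed to 137 and 149 CPM in WT and 150 and 151 CPM in KO, and 173 of them were higher. That sum rests largely on Lztfl1, a ciliary trafficking protein, inside the chemokine receptor gene Ccr9, at a mean of 88.0 CPM. At a mean of 0.1 to 0.5 CPM, where no row entered the comparison, the 113 exon-sharing rows summed to 18.9 and 15.5 CPM in WT and 44.0 and 31.4 CPM in KO, and the 38 rows without shared exons to 6.55 and 6.31 against 8.39 and 7.75 CPM. Exon-sharing rows at 5% of the host or more summed to 3918, 3816, 3790 and 3737 CPM in the order WT 1, WT 2, KO 1 and KO 2. That sum rests largely on 49 rows at a mean of 5 CPM or more. At 0.1 to 0.5 CPM, 54 such rows summed to 13.5 and 10.3 CPM in WT and 21.4 and 14.6 CPM in KO, and 42 were higher. At 0.1 to 0.5 CPM, exon-sharing rows were thus mostly higher in KO on both sides of the 5% limit. Among those at 5% or more, 19 of 26 were higher at 0.5 to 1 CPM (median 0.05). At 1 to 5 CPM 12 of 27 were higher (median -0.10).

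**Figure D4:**
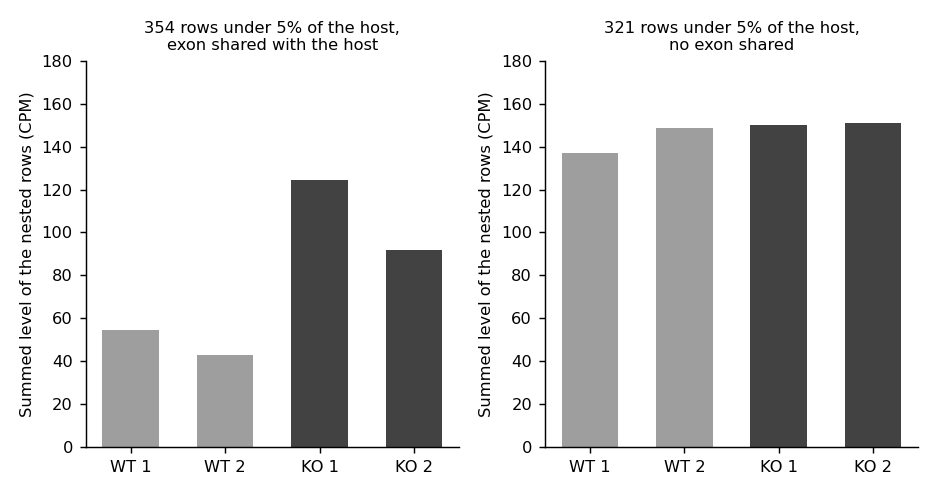
Bars give the summed CPM in each library of all count-table rows nested opposite to a row of the comparison and under 5% of its level per kb, left for 354 rows that share exons with the host and right for 321 rows that do not. On the left the KO bars stand at 124 and 92.0 against 54.3 and 43.0 in WT, and on the right the 4 bars lie between 137 and 151.

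Gm26577, the non-coding gene opposite Myb, had the smallest p of the nested genes. Myb is a transcription factor of thymocyte development, on chromosome 10. Gm26577 stood at 2.95 CPM in WT 1, 2.01 in WT 2, 10.04 in KO 1 and 7.78 in KO 2, so the groups did not overlap (log2 change 1.84, SE 0.22, adjusted p = 0.056 by edgeR's quasi-likelihood test). Myb itself stood at 1363 and 1465 against 1540 and 1554 CPM (0.13, SE 0.05, adjusted p = 0.562). Without either KO library or without WT 1 Gm26577 passed the threshold, and its change ran from 1.59 to 2.15 over the 4 such fits.

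Gm20721 and Gm23935 followed Gm26577 by p among the nested genes named only by a clone number, at 5 CPM or more and with groups that did not overlap. The first, opposite Gnas (the stimulatory G protein alpha subunit), gave 4.29 and 3.45 CPM in WT against 10.7 and 7.34 in KO (log2 change 1.22, SE 0.21, adjusted p = 0.213 by edgeR), while Gnas had a log2 change of -0.09. Gm23935 is a predicted microRNA gene of 57 bases in an intron of Zc3h7a, on the plus strand at chr16:11144125-11144181. It is shown because it was the most abundant gene per kb among those named and shares no exon with its host.
Gm23935: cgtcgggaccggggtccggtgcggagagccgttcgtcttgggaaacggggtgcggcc
Its whole sequence stands in transcripts of 3 genes (Gm23935, Gm24245 and Gm24270), so its counts cannot be tied to this locus. They came to 53.4 and 38.4 CPM in WT and 79.1 and 71.7 CPM in KO (0.71, SE 0.15, adjusted p = 0.443), with Zc3h7a at 0.11.

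Among the 19 low exon-sharing genes, Kdm6bos lies opposite Kdm6b, a histone H3 lysine 27 demethylase. It stood at 0.12 and 0.33 CPM in WT, that is 4 and 10 counts, and at 1.29 and 1.23 CPM in KO, with 44 and 39 counts. Gm9821, opposite the diacylglycerol kinase gene Dgkz, stood at 1.95 and 1.05 against 5.84 and 4.22 CPM, while Dgkz stood at 1382 to 1469 CPM with a log2 change of -0.07. Avpr2, which encodes the vasopressin V2 receptor of the kidney, stood at 0.88 and 0.69 against 3.70 and 2.08 CPM, opposite Arhgap4 at 637 to 685 CPM. In these 3 genes both KO libraries lay above both WT libraries. Gm17638 opposite the translation factor gene Eif3d (35 and 15 counts in WT against 109 and 72 in KO) and Gm26762 opposite the glycolytic gene Gpi1 (0.61 and 0.16 against 1.85 and 1.67 CPM) had the same order. So did Gm2245 opposite the adaptor gene Fyb, at 0.76 and 0.53 against 2.03 and 1.58 CPM. G630030J09Rik opposite Gramd1a, at 0.82 and 1.15 against 0.97 and 1.07 CPM, and Gm15886 opposite Hipk1, at 2.10 and 1.61 against 2.26 and 1.70 CPM, overlapped between groups and lay near 0. Across the 19 genes the exonic bases shared ran from 6 (Aknaos with Akna) to 2347 (Avpr2 with Arhgap4).

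The authors' deposited table marks 46 of its 11536 rows (0.399%), 27 as higher (0.234%) and 19 as lower (0.165%), and all marked rows have an adjusted p of 0.0092 or less there. Of the marked rows 14 were nested, which is 6.48% of the nested genes and 30.4% of the marks, while nested genes are 1.87% of the rows. The higher marks included 12 nested genes of 27, and the lower marks 2 of 19. Those 12 were Gm26577, Gm23935, Gm9821, Gm20721, Fndc9, Kdm6bos, Avpr2, 4930579G18Rik, Gm17638, Gm26762, Gm37376 and Gm26899. Of these 12, 6 (Fndc9, Kdm6bos, Avpr2, 4930579G18Rik, Gm26762 and Gm37376) reached 1 CPM in both KO libraries and in neither WT library and so had to be higher to enter the table; these shares are a description. Exons were shared with the host in 10 of the 12, and 6 were among the 19 low exon-sharing genes. The quasi-likelihood test called none of them, with adjusted p between 0.056 and 0.443. In the authors' deposited table the adjusted p of Gm26577 is 1.67e-10 and that of Fndc9 0.000266.

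Fndc9, a fibronectin type III domain gene in an intron of Cyfip2, had the largest difference of the 3 marked genes without shared exons. It had 9 counts in WT 1 and 1 in WT 2 and 38 and 40 in KO 1 and 2, or 0.27, 0.03, 1.12 and 1.26 CPM, and its change over the fits without 1 library ran from 2.10 to 5.02. Cyfip2, at 637 to 685 CPM, had a log2 change of 0.05.

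The 2 nested genes marked as lower were 1500035N22Rik and Ddx28. 1500035N22Rik is a long non-coding gene in an intron of Prkag2, the gamma 2 subunit of AMP-activated protein kinase, on chromosome 5. It had 1.28 and 2.70 CPM in WT against 0.41 and 0.19 in KO (log2 change -2.70, SE 0.51, adjusted p = 0.284 by edgeR). Prkag2 was lower too, at 48.2 and 58.9 against 33.7 and 34.5 CPM (-0.65, SE 0.09, adjusted p = 0.115), and was 1 of 2 hosts with the authors' mark. The other was Mrpl33, a mitochondrial ribosomal protein gene on the same chromosome, at 65.5 and 77.4 against 47.9 and 49.3 CPM (-0.56, SE 0.08, adjusted p = 0.115), with Rbks inside it at a change of -0.05. Both hosts passed the threshold without WT 1 and by DESeq2.

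Ddx28, an RNA helicase of mitochondrial ribosome assembly, lies inside the tRNA dihydrouridine synthase gene Dus2 on chromosome 8. It had 25.1 and 22.8 CPM in WT against 17.4 and 16.9 in KO (-0.48, SE 0.09, adjusted p = 0.257 by edgeR). Dus2 stood at 23.7 and 24.2 against 21.2 and 21.9 CPM (-0.15). Lpar6, a receptor for lysophosphatidic acid inside the retinoblastoma gene Rb1, stood at 193 and 194 against 171 and 166 CPM (-0.20, SE 0.05, adjusted p = 0.417), and Rb1 at 0.06. In both nested genes the groups did not overlap, and in neither pair did the host differ by as much.

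The other named nested genes at 5 CPM or more were chosen for groups that do not overlap, so their direction is fixed by the choice. On the lower side, Lrfn4 (an adhesion molecule, inside the pyruvate carboxylase gene Pcx) had a log2 change of -0.41, Gimap1os of -0.18, Haspin (a histone H3 kinase, inside the integrin gene Itgae) of -0.17, G6pdx (entry enzyme of the pentose phosphate pathway, inside Ikbkg) of -0.15 and Arf5 (a small GTPase of the Golgi, inside Gcc1) of -0.12. Their adjusted p ran from 0.547 to 0.618. On the higher side, Smim5 had a log2 change of 0.27, Iqcb1 (a ciliary protein, inside Eaf2) of 0.25, Fut11 (a fucosyltransferase) of 0.16, Hsd11b1 (which regenerates active glucocorticoid, inside Lamb3) of 0.16, Ints2 (an Integrator subunit, inside Brip1os) of 0.15 and Yod1 (a deubiquitinase, inside Pfkfb2) of 0.13. Their adjusted p ran from 0.574 to 0.687.

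The most abundant nested genes include factors that DP thymocytes are known for. Rag2, a subunit of the V(D)J recombinase, lies inside B230118H07Rik and had 379 and 410 CPM in WT against 407 and 391 in KO (0.02, SE 0.05). The groups overlapped, and the sign turned without WT 1 and without KO 1. Cd27, a co-stimulatory receptor inside Vamp1, stood at 600 and 593 against 579 and 591 CPM (-0.03, SE 0.05). Txnip, a regulator of glucose uptake and redox state, had the highest level at 847 and 784 against 741 and 773 CPM (-0.11, SE 0.05, adjusted p = 0.625 by edgeR). Desi1 inside the DNA repair gene Xrcc6, Srsf2 (a splicing factor) inside Mettl23 and Ppp2ca (the catalytic subunit of protein phosphatase 2A) inside Gm26551 had log2 changes of 0.02, -0.03 and 0.03.

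Txnip shows the reverse arrangement, in which the abundant gene is inside and the low antisense gene outside. Its host Gm15441 is an antisense RNA gene that shares exons with it and had 2.56 and 2.07 CPM in WT against 4.78 and 3.59 in KO (0.85, SE 0.23, adjusted p = 0.487 by edgeR). Of the 32 hosts under 5 CPM, 8 were higher and 0 lower at an unadjusted p under 0.05, and of the 161 hosts at 5 CPM or more 9 were higher and 12 lower, beside 4.40% higher and 4.01% lower over all genes and 3.57% higher in other rows under 5 CPM. Of the 32 low hosts, 3 reached 1 CPM in both KO libraries and in neither WT library, and 12 of the 24 that reached it in all 4 libraries were higher. Outside the nested genes, 150 rows of the comparison share exons with an opposite-strand row and stand under 5% of its level per kb. Of these 104 were higher, 30 of them at an unadjusted p under 0.05, with 1 lower at that p and a median of 0.12. In both KO libraries and in neither WT library 13 of them reached 1 CPM, and 1 did so in WT alone; the 104 at 1 CPM or more in all 4 libraries had a median of 0.06, with 66 higher. These counts are a description as well. The 1588 such rows at 5% or more had a median of -0.01, with 61 higher and 77 lower.

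**Figure D5:**
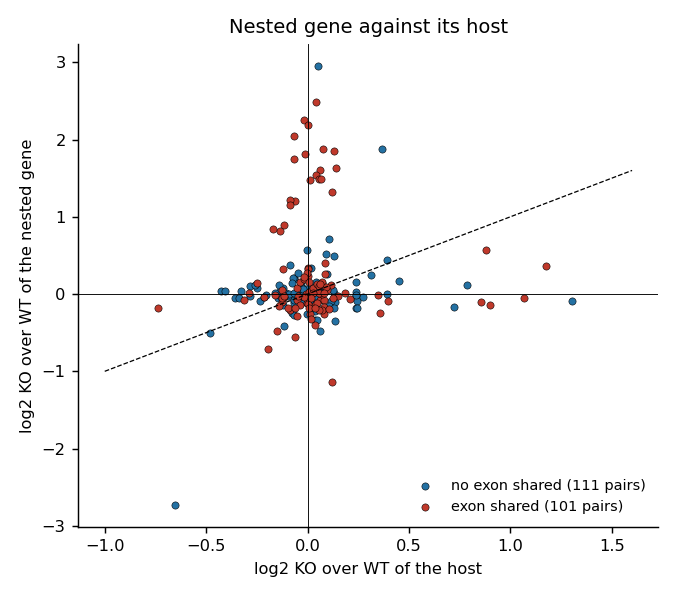
The log2 of KO mean CPM over WT mean CPM of each nested gene (vertical axis) is plotted against that of its host (horizontal axis), in red for the 101 pairs with and blue for the 111 pairs without shared exons; the dashed line marks equal change. Red points above 1 stand over host changes near 0, and the low blue point is 1500035N22Rik with Prkag2. Avpr2 is drawn in both colours, red for Arhgap4 and blue for L1cam.

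The changes of nested genes and hosts were weakly related. Across the 217 pairs the correlation of their log2 changes was 0.10 (Pearson) and 0.06 (Spearman), and 115 pairs had the same sign. These are descriptions across genes measured in the same 4 libraries. In the 111 pairs without shared exons Pearson's r was 0.24, and 0.11 without 1500035N22Rik. These pairs include Avpr2 with L1cam, although Avpr2 shares exons with its other host, Arhgap4. The nested gene stood above its host per kb in 103 pairs. Gm26551 held the most nested genes, 5 in all (Ppp2ca, Skp1a, Cdkn2aipnl, Cdkl3 and Gm12207), and stood at 19.5 and 21.5 against 23.6 and 24.9 CPM (0.24, SE 0.09, adjusted p = 0.547 by edgeR), while the 5 nested genes ran from -0.18 to 0.16.

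Rows nested on the same strand gave a second reference. The 183 rows of the comparison that lie inside a same-strand row, and neither inside nor around an opposite-strand one, had a median of 0.10, and 119 of them (65.0%) were higher. Their median around each gene's own mean was -0.11 in WT 1 and 0.03, 0.06 and 0.05 in WT 2, KO 1 and KO 2, so WT 1 alone stood apart. At an unadjusted p under 0.05, 17 were higher (9.29%) and 4 lower (2.19%), against 4.40% and 4.01% of all genes tested, and the authors' deposited table marks 0. The 1775 rows that overlap an opposite-strand row in part had a median of -0.006.

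How often a nested row entered the comparison was compared between strands. Of 4597 rows of the whole count table nested on the opposite strand of any row, 8.25% entered the comparison, and of 4265 nested on the same strand 6.73%. With hosts over 100 CPM the shares were 11.2% and 9.79%, and with hosts under 0.1 CPM 5.63% and 4.06%. Between these they were 12.9% and 4.71% at 0.1 to 1 CPM, 10.1% and 10.9% at 1 to 10 CPM and 8.61% and 8.08% at 10 to 100 CPM. The gap between strands was thus not constant, and the opposite-strand share did not rise steadily with the host.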

How the data were processed

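RNA-seq libraries of sorted DP thymocytes came from 2 WT and 2 KO mice, grouped and numbered as in the labels. The submitters' processing notes name Trimmomatic 0.33, STAR 2.5.2, HTSeq and edgeR, with mm10 as the build. Of HTSeq, neither version, mode nor strand setting is stated in those sources, and no annotation release is named. The deposited counts are raw counts per Ensembl gene for 43430 rows. CPM in the authors' comparison equals counts over the library total of genes, and keeping rows at 1 CPM or more in at least 2 libraries gives the same 11536 rows. Its log2 changes are the authors' own, as are the deposited p-values, and a deposited score holds the likelihood ratio of their test, per the file headers. HTSeq's summary lines were kept out of library sizes and tests.

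Log2 changes of sets are log2 of mean KO over mean WT CPM with no pseudocount. Tests of genes used edgeR 4.0.16 (R 4.3.3) quasi-likelihood over 13281 genes (TMM scaling, robust fit, a design with the group alone, Benjamini-Hochberg; genes kept at a count of 10 and a total of 15), and the log2 changes of single genes given with an SE are from that fit. The SE is the absolute log2 change over the square root of F. All 216 nested genes passed this filter. With 2 libraries a group, an exact permutation test cannot go below p = 0.333. The procedure was tested on simulated data. DESeq2 1.42.0, edgeR's exact test, other scalings, filters and member rules, each library left out and a replicate block were alternatives. Replicates differed by more than sampling noise (chi-square per degree of freedom 9.00 in WT and 4.82 in KO). Between groups it was 5.46 for WT 2 with KO 1 and 7.74 for WT 2 with KO 2. For WT 1 it was 10.1 with KO 1 and 12.1 with KO 2. By this measure WT 2 was nearer to both KO libraries than to WT 1. Each library came from its own mouse, and p-values rest on these 4 mice.

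Exons, biotypes and sequences came from GENCODE M21 (mm10), which matched 213 nested genes and 191 hosts; 67.7% of 11474 matched rows had the same start and end, and 198 of 212 matched pairs are nested there too. Levels between genes were compared per kb of the deposited exonic length. In some genes that length exceeds the merged exons, as in Avpr2 with 6012 bases against 2886 in GENCODE M21. In Arhgap4, at 45972 bases, it exceeds the whole gene from base 73891442 to base 73921870. Levels per kb and the 5% limit are uncertain to that extent. Named genes were Uqcrfs1, nested genes and hosts called at an adjusted p under 0.05 (none was), up to 8 nested genes in each direction and 3 clone-named ones with the smallest p among those at 5 CPM or more with groups that do not overlap, the 6 most abundant nested genes, the 3 hosts with most nested genes, and hosts of these. Genes marked by the authors, the 19 low exon-sharing genes, Gm11175 and Lztfl1 were added after their values were seen. Some genes that met this rule are not reported here. The members and lists were chosen with earlier results of these data known.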

Additional observations from a re-analysis of the deposited data

How the results depend on the processing

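Calls were few and moved with the method. Over all genes 3 were called in the main setting, 24 by DESeq2's Wald test, 81 by edgeR's exact test, 191 with no filter beyond a count above 0 and 27 with a replicate block, and 10 to 35 with each library left out. Of the nested genes the numbers called were 0, 5, 15, 20, 5 and 0 to 4, and 19 to 31 were higher at an unadjusted p under 0.05 with each library left out. The share of all genes higher at that p also moved with the library left out and was largest without WT 2. The range of nested counts therefore does not show a stable excess. Library totals, DESeq2 size factors or only the authors' rows gave 3 genes called over all genes and 0 nested ones. The replicate numbers are not shown to pair the mice: deviations from the group mean correlated at 0.0912 across genes. The block moved Gm26577, Gm20721, Gm23935, Gm9821, Avpr2, Prkag2 and Mrpl33 past the threshold. DESeq2 gave 1500035N22Rik in place of Gm23935.

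The median change of nested genes (-0.006) was -0.022 with members at 5 CPM or more, -0.013 with hosts from all rows of the count table and -0.016 without shared exons, and -0.0058 to 0.0087 with each library left out. The host median (0.011) was -0.0031 for hosts of genes without shared exons, and -0.0018 to 0.024 with each library left out. The median of nested minus host (-0.001) was 0.0085 with 1 CPM added, -0.016 with members at 5 CPM or more, -0.041 with hosts from all rows and -0.012 without shared exons, and -0.025 to 0.012 with each library left out. The median of the 19 low exon-sharing genes (1.48) was 1.07 to 1.63 with each library left out, 0.65 over the 6 members at 1 CPM or more in all 4 libraries, and 1.32 over 35 rows of the count table with a mean of at least 0.5 CPM. These settings of the 19-gene median were chosen after seeing the data. At limits of 2% and 10% it rested on 9 and 30 pairs and moved by less than the spread between replicates. With levels compared without length, at under 1% of the host, the median was 1.48 over 23 pairs. That setting too was chosen after seeing the data. The cause of these shifts was not tested.

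With gene reads plus no-feature reads as the total, the no-feature share was 17.4% and 18.7% in WT and 20.8% and 20.03% in KO, and of all lines 13.0% and 14.2% against 15.8% and 15.3%, so KO stayed above WT. With each library left out, the fitted change turned sign, among the nested genes named, in Desi1 (-0.032 to 0.080), Rag2 (-0.039 to 0.075), 6430562O15Rik (-0.0080 to 0.48), G630030J09Rik (-0.18 to 0.31) and Gm15886 (-0.13 to 0.30), and in several hosts, Itgae (-0.66 to 1.41), Pcx (-0.34 to 0.14) and Lamb3 (-0.080 to 0.18) among them. Depth limits the low genes, since 19 low exon-sharing genes together had 503 to 1736 counts a library.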

Other observations

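Pseudogenes made up 15 of the nested genes, and all 15 stood under 5 CPM. Their median log2 change was -0.10. At an unadjusted p under 0.05 by edgeR's quasi-likelihood test 0 were higher and 2 lower, beside 4.40% and 4.01% of all genes tested. The counts of these pseudogenes are uncertain where a near-identical parent gene shares reads. The 3 small RNA genes were higher in KO by 0.22 to 0.72 on the log2 scale, and 1 of them, Gm23935, was at an unadjusted p under 0.05.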
